A study of Arabidopsis thaliana with 36 samples.

Results

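The 9 genes described here encode U-box E3 ubiquitin ligases and related armadillo (ARM) repeat proteins of Arabidopsis thaliana: PUB18 (AT1G10560), PUB19 (AT1G60190), PUB20 (AT1G66160, annotated as CMPG1), PUB21 (AT5G37490), PUB22 (AT3G52450), PUB23 (AT2G35930), PUB24 (AT3G11840), and AT5G58680 and AT1G24330, which are annotated as ARM repeat superfamily proteins. They are 9 of the 22591 loci represented on the array, and each has 1 probe set of its own, found by its locus. The study's gene list also gives AT1G24330 a ubiquitin-protein ligase function. The set was chosen by measured values, the flight and ground control signals of the organs. PUB19, PUB23, AT5G58680 and AT1G24330 stand in the deposited lists of probe sets that changed in an organ, and the others were added as PUB proteins of neighbouring number with results of these arrays known. Flight against ground control values in leaves, hypocotyls and roots are therefore given as a description, with no test of any of the 9 genes.

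Transcripts were measured on 36 ATH1 arrays, 30 of them from leaves, hypocotyls and roots (5 per organ and environment) and 6 from whole plants (3 per environment). Flight plants grew for 12 days on vertical plates in the ABRS chamber aboard the International Space Station, and ground control plants grew in the same hardware in a chamber at Kennedy Space Center that was set to station conditions; both were fixed in RNAlater. Each environment contributed plates 2, 4 and 6, with 1 organ array per organ from plate 2, 2 from plate 4 and 2 from plate 6, and 1 whole plant array per plate. All plants of both environments carried a GFP reporter (Adh::GFP, DR5::GFP or UB::GFP). The study names 3 lines, driven by the alcohol dehydrogenase promoter, a synthetic auxin response element and a constitutive viral promoter. It describes no UB::GFP line, so the promoter of that reporter is not given here. Every organ array, flight and ground alike, came from a pool of several plants labelled 60% WS and 40% Col-0, whereas the whole plant arrays were labelled WS. Arrays of 1 environment come from only 3 plates of a single run, so the spread between arrays is in part a spread within plates.

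A U-box protein is an E3 ligase: its U-box holds the E2 enzyme that carries ubiquitin, and in this class the ARM repeats bind the protein to be marked, often for the proteasome. PUB22, PUB23 and PUB24 act together to restrain the responses that follow perception of microbial patterns, and PUB22 marks the exocyst subunit EXO70B2. PUB18 and PUB19 restrain abscisic acid and drought responses in guard cells, and PUB18 marks EXO70B1. PUB20 belongs to the CMPG1 group, known from parsley as rapidly induced by elicitors. Transcripts of several members are known to rise within minutes to hours of elicitor, wounding or stress treatments.

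The values are MAS5 signals, an array intensity on a linear scale, and differences are given on the log2 scale with no offset. The medians of the 36 arrays lay between 158 and 203. The lower quartile of the ground control leaf array from plate 2 was 68.9, while it was 32.9 to 45.6 on the remaining leaf arrays of that environment, and the flight whole plant array of plate 2 was deposited with 3 significant digits only. Of 5 leaf marker genes measured, all passed as lower in ground control roots than in ground control leaves, and all 6 root markers passed as higher (limma, adjusted p under 0.05). The summed signal of the root markers was 1183 to 2332 on ground control leaf arrays and 33791 to 38553 on ground control root arrays. Signal is low for part of the 9 genes: 2 (leaves), 4 (hypocotyls), 4 (roots) and 3 (whole plants) of them fell among the lowest 40% of probe sets by mean log2 signal. AT5G58680 was low in all 4 materials, and PUB21 in leaves, hypocotyls and roots. PUB18 was low in hypocotyls, roots and whole plants, AT1G24330 in roots and whole plants, and PUB22 in hypocotyls. In RNA from whole organs, fewer cells of a type and less RNA per cell cannot be told apart.

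**Figure D1:**
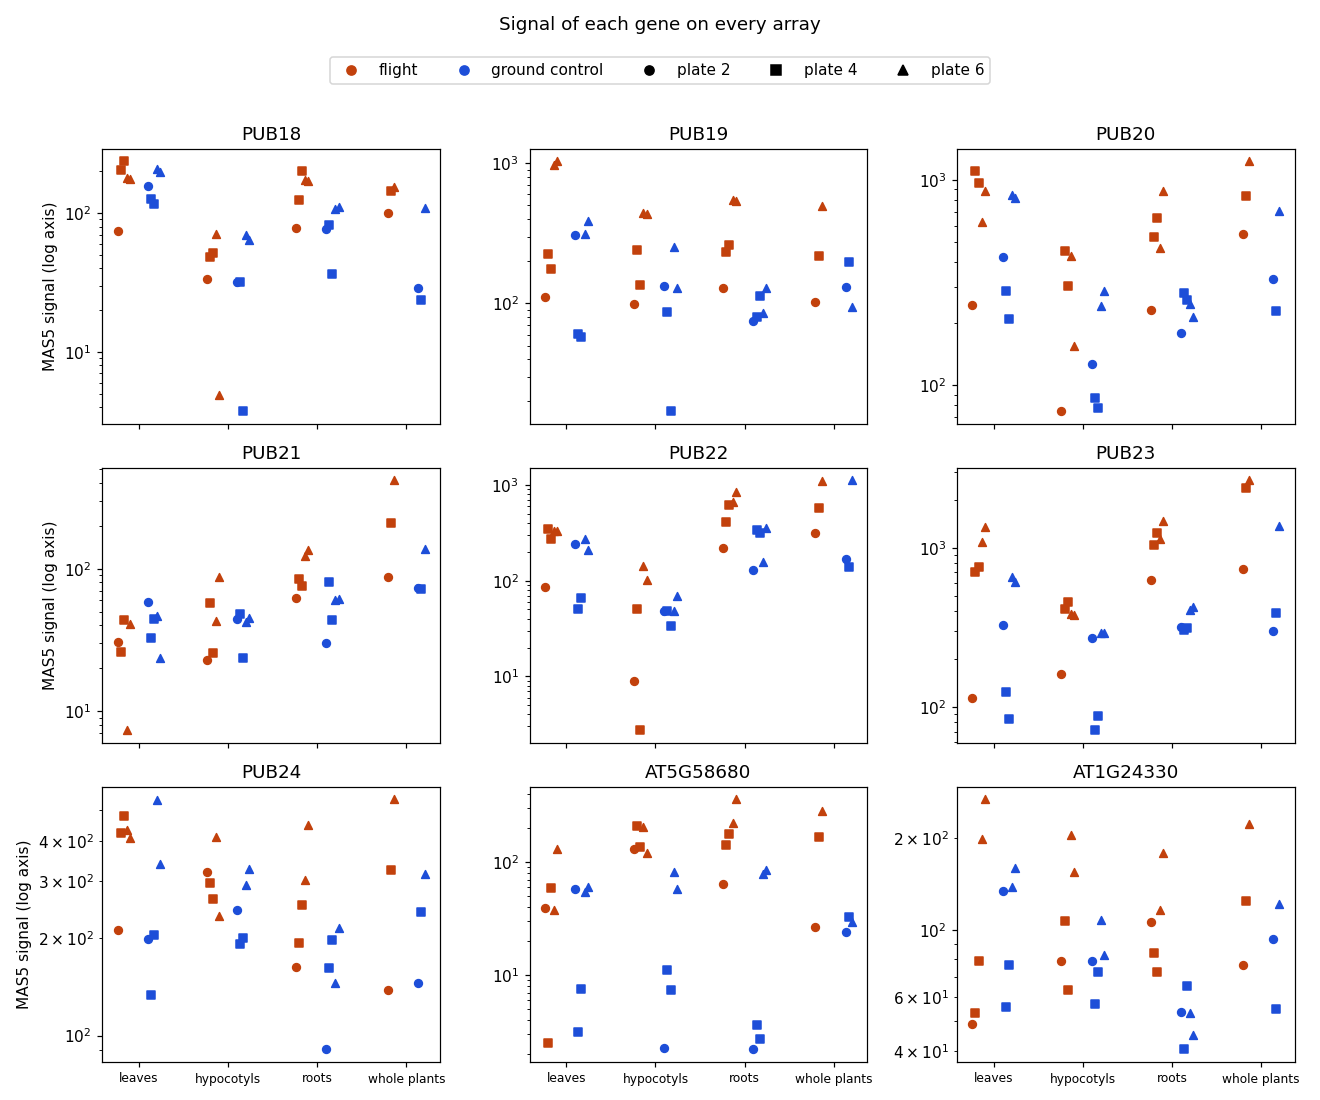
MAS5 signal (log axis) of each of the 9 genes on every array, by organ and in whole plants, with flight in orange, ground control in blue and the plate as the symbol. In roots the 5 flight arrays of PUB19, PUB23 and AT1G24330 lie above their 5 ground control arrays, and in leaves the flight array of plate 2 is the lowest flight array for 7 of the 9 genes.

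In roots, the signal was higher in flight than in ground control for all 9 genes, by 0.72 to 3.95 on the log2 scale, with a median of 1.06 against a median of 0.00 over all probe sets. At the thresholds by which genes were chosen (unadjusted p under 0.01 and a change of at least 1.9-fold), 5 of the 9 passed as higher in this fit (PUB19, PUB20, PUB23, AT5G58680 and AT1G24330), beside 1.06% of all probe sets. Of the 5 that passed, AT1G24330 was nearest the fold limit, at 2.09-fold. PUB22, at 2.08-fold, was past the fold limit but not the limit on p, and PUB18 was nearest below the fold limit, at 1.85-fold. Since these values chose the genes, nothing is read from that count. No probe set on the array passed an adjusted p under 0.05 in roots (0% called, limma; 1637 had an unadjusted p under 0.05). Signals at least 1.9-fold higher in flight were seen in 6 of the 9 genes and in 6.88% of all probe sets, and 3 of the 9 had every flight array above every ground control array, as did 1.07% of all probe sets.

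Among the ligases that restrain pattern-triggered responses, PUB23 alone had separate groups in roots. Its signals in flight were 629 on plate 2, 1039 and 1239 on plate 4, and 1133 and 1469 on plate 6. In ground control roots they were 320 on plate 2, 303 and 312 on plate 4, and 409 and 422 on plate 6. The lowest flight root array of PUB23 thus lay above the highest ground control array, a difference of 1.60 ± 0.23 (log2, SE), and MAS5 called the gene present on all 5 arrays of both groups. The mean signal of PUB22 in roots was 551 ± 243 in flight against 260 ± 106 in ground control (SD, n = 5 each), a log2 difference of 1.06 ± 0.43 (SE), and its groups overlapped because the flight array of plate 2, at 219, was below 3 of the 5 ground control arrays. PUB24 had the smallest difference of the 9 genes in roots, 272 ± 112 against 162 ± 48.3 (SD, n = 5 each; log2 difference 0.72 ± 0.32, SE), also with overlapping groups.

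PUB19, a ligase of drought and abscisic acid responses, had flight root signals of 130 on plate 2, 235 and 262 on plate 4, and 550.5 and 536 on plate 6. Its ground control root signals were 75.4 on plate 2, 80.2 and 113 on plate 4, and 85.8 and 128 on plate 6. All 5 flight arrays lay above the ground control, though flight plate 2 exceeded the highest ground control array only slightly, and within flight the signal stepped up from plate 2 to plate 4 to plate 6. The log2 difference was 1.66 ± 0.40 (SE), and MAS5 called PUB19 present on 4 of 5 flight root arrays and on 0 of 5 ground control root arrays. PUB18, which shares that role, had 150 ± 48.9 against 82.3 ± 29.5 (SD, n = 5 each; log2 difference 0.89 ± 0.36, SE), with flight plate 2 (78.0) inside the ground control range.

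The root signal of PUB20, the CMPG1 protein, was 553 ± 241 in flight against 237 ± 40.2 in ground control (SD, n = 5 each; log2 difference 1.11 ± 0.32, SE). Its groups overlapped by 1 array, again flight plate 2 at 234. PUB21 had 96.1 ± 31.5 against 55.3 ± 19.2 (SD, n = 5 each; log2 difference 0.81 ± 0.31, SE) at a low signal.

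The ARM repeat gene AT5G58680 had the highest fold of the 9 genes in roots and the least even one. Flight roots gave 64.7 on plate 2, 142 and 177 on plate 4, and 223 and 360 on plate 6. Ground control roots gave 2.20 on plate 2, 3.62 and 2.75 on plate 4, and 79.5 and 85.8 on plate 6. The ground control arrays of plate 6 were thus far above those of the other plates and above flight plate 2, so the groups overlapped. The log2 difference of 3.95 ± 1.16 (SE) rests on 3 ground control arrays with signals under 4: with an offset of 36.5 added before log2 it was 1.77 ± 0.41 (SE). AT1G24330, the other ARM repeat gene, had flight root signals of 106, 84.0, 72.6, 116 and 179 and ground control signals of 53.4, 40.4, 65.3, 53.1 and 45.0 (in the order plate 2, plate 4, plate 4, plate 6, plate 6). Its groups did not overlap, and the log2 difference was 1.06 ± 0.25 (SE) at a low signal. MAS5 called AT1G24330 present on 4 of 5 flight and 1 of 5 ground control root arrays.

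**Figure D2:**
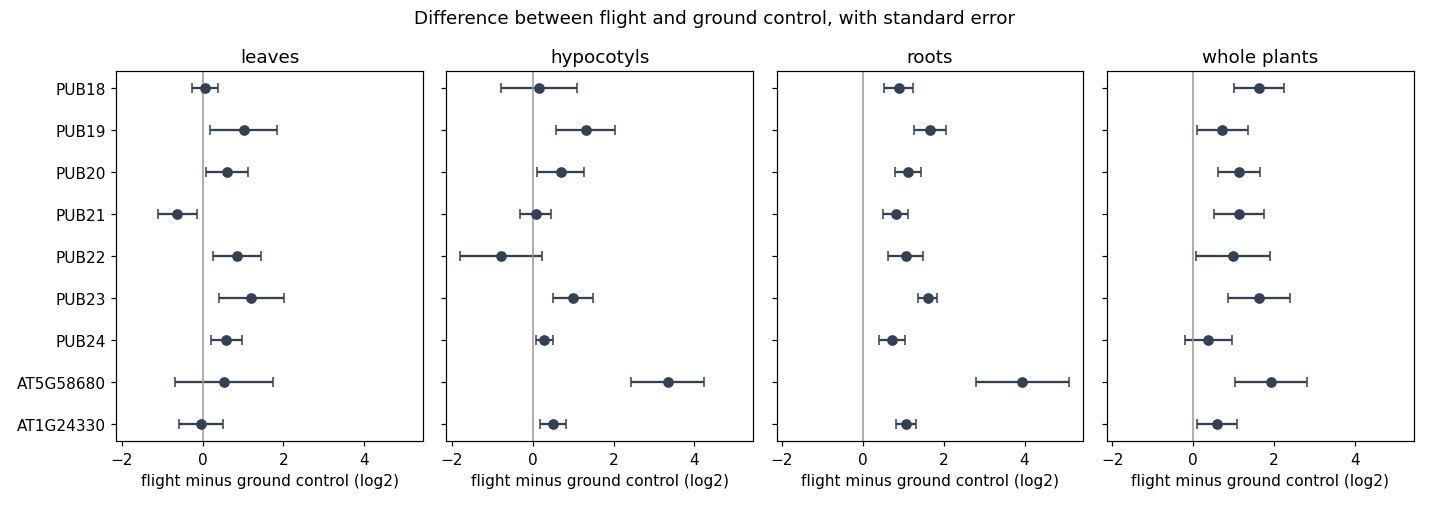
Flight minus ground control (log2 signal) of each gene in leaves, hypocotyls, roots (5 arrays per environment) and whole plants (3 per environment); points are the fitted differences and bars their standard errors. All 9 points lie above 0 in roots and in whole plants, and AT5G58680 lies farthest out, at 3.34 in hypocotyls and 3.95 in roots.

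In hypocotyls, AT5G58680 was the single gene of the 9 with separate groups, beside 0.528% of all probe sets with every flight array higher. Flight hypocotyls gave 130 on plate 2, 211 and 136 on plate 4, and 206 and 122 on plate 6. Ground control hypocotyls gave 2.24 on plate 2, 11.1 and 7.43 on plate 4, and 82.6 and 57.4 on plate 6. As in roots, the ground control of plate 6 was well above that of the other plates, and flight was higher than all of them. The log2 difference was 3.34 ± 0.90 (SE), and 1.65 ± 0.30 (SE) with the offset of 36.5; MAS5 called the gene present on 4 of 5 flight and 0 of 5 ground control hypocotyl arrays. It alone passed the thresholds of choice, beside 0.422% of all probe sets, and 0.0044% of all probe sets (1, none of the 9 genes) passed an adjusted p under 0.05 (1416 had an unadjusted p under 0.05).

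Hypocotyl signals at least 1.9-fold higher in flight were seen in 3 of the 9 genes and in 6.3% of all probe sets: besides AT5G58680, these were PUB19 (271 ± 163 against 124 ± 86.6, SD, n = 5 each; log2 difference 1.32 ± 0.73, SE) and PUB23 (359 ± 115 against 202 ± 112; 0.99 ± 0.49). The log2 difference of PUB22 was negative, -0.78 ± 1.01 (SE). Its ground control signals were all between 33.6 and 68.8, while flight arrays ran from 2.74 and 8.91 up to 101 and 142, so both the lowest and the highest arrays were flight arrays. Without the flight array at 2.74 the difference was 0.066, so that 1 array sets its direction. The remaining 5 genes had differences between 0.07 and 0.70 with overlapping groups.

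In leaves, no gene of the 9 had separate groups and none passed the thresholds of choice, beside 0.51% and 0.281% of all probe sets. PUB23 (1.21 ± 0.81, log2, SE) and PUB19 (1.02 ± 0.84) were at least 1.9-fold higher in flight, 2 of the 9 genes beside 2.7% of all probe sets, and 0% of probe sets passed an adjusted p under 0.05 (1731 had an unadjusted p under 0.05). Leaf signals of PUB23 in flight were 114 on plate 2, 703 and 760 on plate 4, and 1090 and 1355 on plate 6. In ground control they were 327 on plate 2, 125 and 83.7 on plate 4, and 651 and 609 on plate 6. The highest leaf array exceeded the lowest 11.9-fold in flight and 7.78-fold in ground control, more than the 2.32-fold difference between them. PUB19 showed the same order of plates: 110.3, 227, 177, 972 and 1033 in flight, and 309, 60.2, 57.6, 315 and 388 in ground control (plate 2, plate 4, plate 4, plate 6, plate 6). PUB21 was lower in flight, by 0.63 ± 0.48 (log2, SE) at a low signal, and AT1G24330 differed by -0.04 ± 0.54 (SE).

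Read within plate numbers, the difference between flight and ground control kept its sign in roots and changed it for part of the genes in leaves and hypocotyls. These organ values are among those that chose the genes, so nothing is read from the contrast of organs. In roots, all 9 genes were higher in flight on plate 2, on plate 4 and on plate 6, with medians of 0.85, 1.11 and 1.56 (log2). PUB18 on root plate 2 differed by only 0.03, less than the median of 0.09 over all probe sets there. In leaves, 1 of the 9 genes was higher in flight on plate 2 (PUB24, by 0.09), 7 on plate 4 and 5 on plate 6, with medians of -1.08, 1.44 and 0.29. The median over all probe sets of these within-plate differences lay between -0.13 and 0.09 in leaves and roots. PUB23 shows the pattern: in leaves it differed by -1.52 on plate 2, 2.84 on plate 4 and 0.95 on plate 6, and in roots by 0.97, 1.89 and 1.63. PUB22 in leaves differed by -1.52, 2.41 and 0.47 on these plates. In hypocotyls 4, 8 and 7 of the 9 genes were higher in flight on plates 2, 4 and 6. No share of all probe sets higher in flight within a plate is given, so nothing is read from these counts. Plate 2 holds 1 array per organ and environment, so its differences have no spread of their own, and on the leaf array of ground control plate 2 the 25th percentile stood apart as given above.

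**Figure D3:**
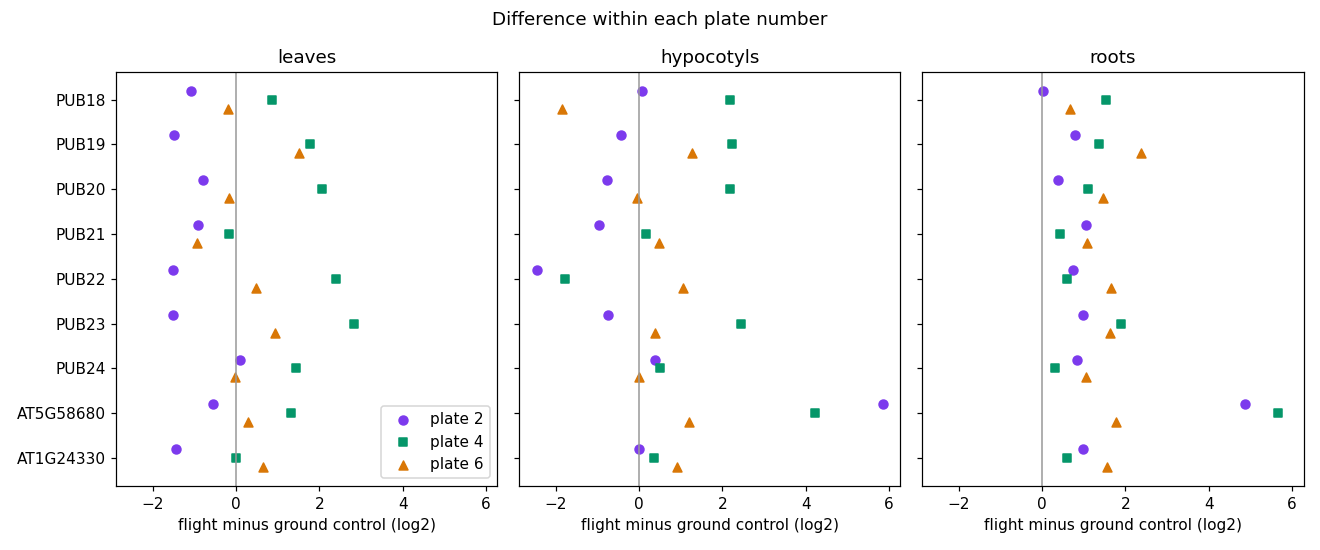
Flight minus ground control (difference in mean log2 signal) of each gene within plates 2 (1 array per environment), 4 and 6 (2 arrays per environment), in 3 organs. In roots all points lie above 0, PUB18 on plate 2 by only 0.03. In leaves the plate 2 points lie below 0 for 8 of the 9 genes.

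Plates also differed within an environment, a comparison that holds flight and ground control apart. Among ground control leaves, both plate 6 arrays exceeded both plate 4 arrays in 8 of the 9 genes, beside 16.8% of all probe sets. The median difference was 1.76 (log2) over the 9 genes and -0.08 over all probe sets, and PUB19 was 5.93-fold, PUB23 6.16-fold and PUB22 4.12-fold higher on plate 6. The same held in 8 of the 9 genes in ground control hypocotyls, beside 18%, but in only 3 of the 9 in ground control roots, beside 24.1%: PUB18 (1.98-fold), PUB23 (1.35-fold) and AT5G58680, whose plate 4 signals of 3.62 and 2.75 lay below the lower quartile of those arrays, so that no fold is given. PUB20, PUB22, PUB24 and AT1G24330 were level or slightly lower on plate 6 in these roots, with differences of -0.46 to -0.02. Between flight plates 6 and 4, both plate 6 arrays were higher in 3 of the 9 genes in leaves (25.2% of all probe sets), 3 in hypocotyls (22%) and 6 in roots (22.1%).

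Flight plate 2 was the low plate. In leaves its single array lay below all 4 other flight arrays for 7 of the 9 genes, and it did so for 4 genes in hypocotyls and 8 in roots, beside 17.3%, 20.2% and 19% of all probe sets. The median difference of plate 2 from plates 4 and 6 over the 9 genes was -1.41 in leaves, -1.08 in hypocotyls and -1.08 in roots, against 0.07, 0.04 and 0.12 over all probe sets. PUB23 in leaves was lower by 3.05 and PUB20 in hypocotyls by 2.04, both as log2 differences of the means. The 9 genes are not independent of each other, and the plate patterns were described after the values had been seen, with no test. The median of 17 early defence response genes was higher by 1.35, 1.20 and 0.70 on ground control plate 6 than on plate 4 in leaves, hypocotyls and roots (1.76, 1.70 and 0.04 for the 9 genes), and differed by -0.94, -0.70 and -0.95 between flight plate 2 and plates 4 and 6. The medians of 11 abscisic acid and drought genes were 0.15, -0.17 and -0.07 for the ground control plates and -0.20, 0.72 and 0.01 for flight plate 2. What set the plates apart was not tested.

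**Figure D4:**
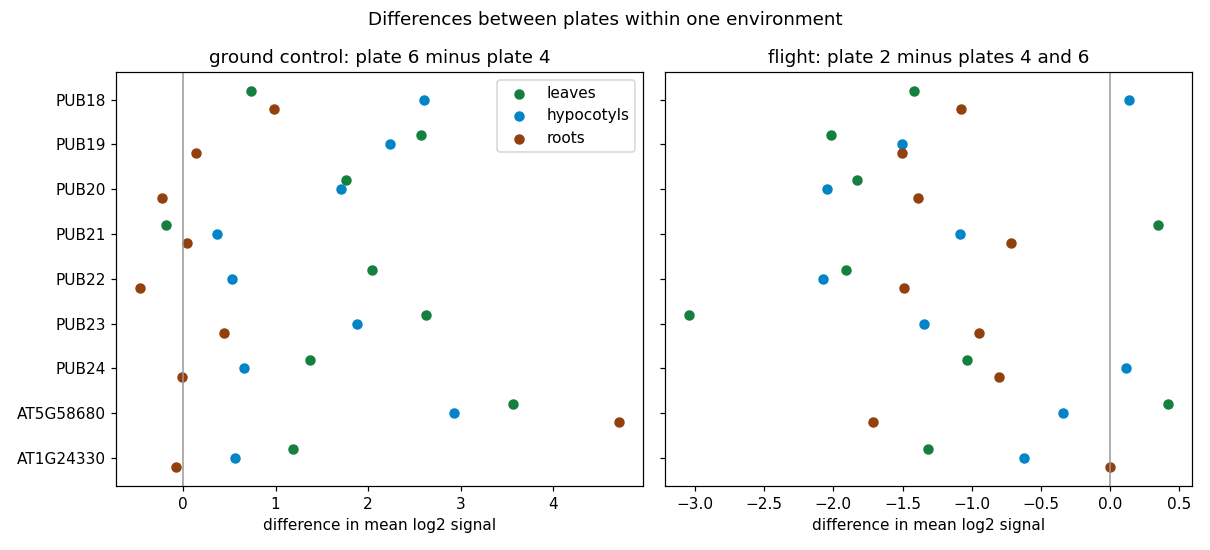
Differences in mean log2 signal between plates of 1 environment for each gene: ground control plate 6 minus plate 4 (left, 2 arrays each) and flight plate 2 (1 array) minus plates 4 and 6 (right), in leaves, hypocotyls and roots. On the left most leaf and hypocotyl points lie above 0. Root points there lie between -0.46 (PUB22) and 0.99 (PUB18), apart from AT5G58680 farther above 0. On the right most points lie below 0, with medians of -1.41 in leaves and -1.08 in both hypocotyls and roots.

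The deposited lists of changed probe sets in organs did not use the whole plant arrays, so flight was compared with ground control by a test there. The arrays came from the same run and plate numbers, and the set was completed with results of all arrays known, so this test is not free of the choice of genes. All 9 genes had a higher mean log2 signal in flight, by 0.38 to 1.92, with a median of 1.13 against -0.01 over all probe sets. On the same arrays all 5 leaf markers were lower in flight (median -0.46; summed signal 26817 to 35660 in flight and 37660 to 49209 in ground control), as were 4 of 6 root markers (median -0.40; 11479 to 15768 and 8772 to 14736), and the part of this in the values of the 9 genes was not tested. Of the 9 genes, none passed (0 of 9; adjusted p between 0.966 and 0.972, limma), beside 0.0044% of all probe sets (1 of 22746). At an unadjusted p under 0.05 there was 1 of the 9 genes, PUB18, beside 1030 probe sets. Signals at least 1.9-fold higher in flight were seen in 6 of the 9 genes and in 9.41% of all probe sets. No gene of the 9 had every flight array above every ground control array (4.96% of all probe sets did).

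PUB23 gave 737 on plate 2, 2373 on plate 4 and 2650 on plate 6 in flight whole plants, and 299, 391 and 1369 in ground control. The ground control array of plate 6 stood above flight plate 2, and the difference was 1.62 ± 0.77 (log2, SE; 95% interval -0.27 to 3.51). PUB18 gave 100, 144 and 153 in flight and 29.0, 23.5 and 108 in ground control, with ground control plate 6 the only array that overlapped flight (difference 1.64 ± 0.62; interval 0.11 to 3.17). AT5G58680 gave 26.5, 169 and 285 in flight against 23.9, 32.8 and 29.8, so that 2 flight arrays were far above and plate 2 within the ground control values (difference 1.92 ± 0.89; interval -0.26 to 4.11). Its ground control values and flight plate 2 lay below the lower quartile of every whole plant array (lowest 41.5), so this size is uncertain. PUB18 on ground control plates 2 and 4 lay there too. PUB22 gave 317, 578 and 1094 in flight and 167, 140 and 1117 in ground control: on plates 2 and 4 flight was higher and on plate 6 both were alike. PUB19 was lower in flight on plate 2 (103 against 130) and higher on plate 6 (495 against 94.4). In flight whole plants, plate 2 was the lowest of the 3 arrays for all 9 genes. No share of all probe sets with that order is given, so nothing is read from this count.

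Organ differences were tested on the 15 ground control organ arrays. The 5 arrays of an organ come from only 3 plates and were fitted as independent, and plate means were not fitted here. No organ difference entered the choice of the genes, but the same arrays were the ground control side of the comparisons that did. A gene chosen for a low ground control signal in 1 organ is therefore favoured to be low there against other organs, and the calls below are not independent of the choice. Between ground control roots and leaves, 1 of the 9 passed an adjusted p under 0.05, beside 41.3% of all probe sets: AT1G24330, lower in roots, at 51.4 ± 9.52 against 113 ± 44.3 (SD, n = 5 each; log2 difference -1.04 ± 0.28, SE). Its root signal is low and its ground control root arrays are those by which it was chosen, so this call is given as a description with no p. Between ground control hypocotyls and leaves, 3 passed, beside 35.7% of all probe sets, all 3 as lower in hypocotyls (15.6%). Between ground control roots and hypocotyls 1 passed, beside 30.5%.

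PUB18 had ground control leaf signals of 157 on plate 2, 126 and 117 on plate 4, and 208 and 197 on plate 6. Ground control hypocotyls gave 31.8, 32.0, 3.74, 69.3 and 63.8 in the same order. The groups did not overlap, and hypocotyls differed from leaves by -2.49 ± 0.64 (log2, SE; limma adjusted p = 0.00793). Without the hypocotyl array at 3.74 the difference was -1.77, and the call held with each array left out (highest adjusted p = 0.0195). A filter on the lowest 40% of signals removes PUB18, so the call is absent there. PUB18 was also below its leaf range on all 5 root arrays (36.6 to 110.3), yet that difference did not pass (-1.03 ± 0.64; limma adjusted p = 0.23; 0.0272 with leaf and root arrays alone in the fit). PUB20 fell from 517 ± 297 in leaves to 165 ± 96.2 in hypocotyls (SD, n = 5 each; log2 difference -1.64 ± 0.44, SE; limma adjusted p = 0.0102), and its groups overlapped, with ground control leaves of plate 4 at 288 and 210.

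PUB22 was low in hypocotyls against both other organs. Ground control hypocotyls gave 33.6 to 68.8, roots 131 to 355 and leaves 51.0 to 270. Roots were higher than hypocotyls on every array, by 2.31 ± 0.48 (log2, SE; limma adjusted p = 0.00221), and hypocotyls lay below leaves by a difference of -1.49 ± 0.48 (limma adjusted p = 0.0259). The second call was lost when ground control leaves of plate 2, either leaf array of plate 6 or the second hypocotyl array of plate 4 was left out (highest adjusted p = 0.0664) and with quantile normalization (adjusted p = 0.0738).

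PUB23, PUB24, PUB19, PUB21 and AT5G58680 passed in no comparison of ground control organs. For PUB23 the order was roots (353 ± 57.5), leaves (359 ± 264) and hypocotyls (202 ± 112, SD, n = 5 each) by mean log2 signal, with differences of 0.39 (95% interval -0.88 to 1.65) between roots and leaves and -0.65 (-1.91 to 0.62) between hypocotyls and leaves. All 5 ground control root arrays of PUB23 exceeded all 5 hypocotyl arrays, though that difference, 1.04 ± 0.59, did not pass either (limma adjusted p = 0.218). AT5G58680 had the widest intervals (-3.94 to 1.97 for roots minus leaves), since its ground control signals ran from 2.20 to 85.8 in roots and from 3.13 to 60.5 in leaves. In flight, by description alone, PUB22 had 273 ± 109 in leaves, 61.1 ± 59.9 in hypocotyls and 551 ± 243 in roots, PUB18 had 174 ± 60.8, 41.6 ± 24.3 and 150 ± 48.9, and AT5G58680 had 54.0 ± 47.9, 161 ± 43.8 and 193 ± 109.6 (SD, n = 5 each). The mean signals of PUB18 and PUB22 were thus lowest in hypocotyls in both environments. Flight hypocotyl arrays of PUB22 ran from 2.74 to 142, however, and overlapped its flight leaf arrays (85.1 to 346).

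**Figure D5:**
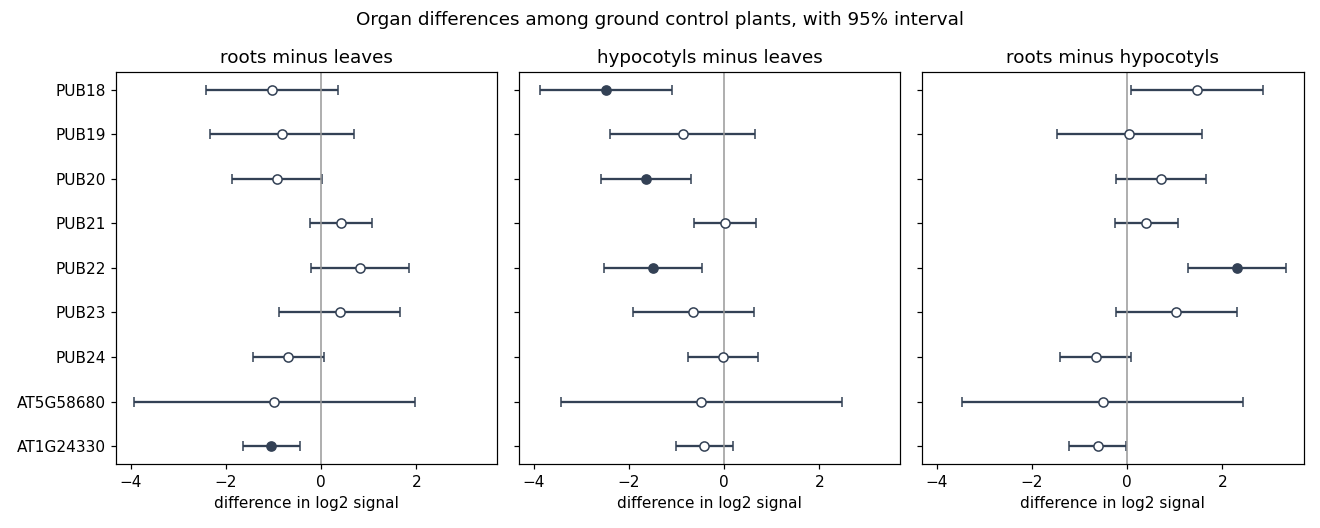
Differences in log2 signal between organs of ground control plants for each gene (5 arrays per organ, fitted together), with 95% intervals; filled points passed an adjusted p under 0.05. Filled are AT1G24330 (roots minus leaves), PUB18, PUB20 and PUB22 (hypocotyls minus leaves) and PUB22 (roots minus hypocotyls).

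Across the 30 organ arrays the signals of the 9 genes tended to vary together. Pearson's r of log2 signal over the 36 pairs of genes ran from -0.13 to 0.78 with a median of 0.47, and after each group's mean had been taken off it ran from 0.03 to 0.82 with a median of 0.46. The arrays share plates and scaling, so these are descriptions. No median over other pairs of genes is given, so the values are not read as a trait of the 9 genes. The pair with the highest r of deviations was PUB20 and PUB23 (0.82), followed by PUB19 with AT1G24330 (0.78) and PUB19 with PUB23 (0.78). PUB21, a low-signal gene, had the lowest r, -0.13 with PUB24 for the levels.

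The probe sets most alike to each gene over these 30 arrays were sought among those above the low-signal limit. For PUB23 they were S6K2 (AT3G08720, a ribosomal S6 kinase; r = 0.93), SYP122 (AT3G52400, a plasma membrane syntaxin; r = 0.90) and AT1G14480 (r = 0.88). PUB19 was most like AT2G17660 (r = 0.90), CZF1 (AT2G40140, a zinc finger protein; r = 0.90) and HSF A4A (AT4G18880, a heat stress transcription factor; r = 0.89). PUB20 was most like AT1G05575 (r = 0.91), XTH18 (AT4G30280, a cell wall xyloglucan enzyme; r = 0.89) and TET8 (AT2G23810, a tetraspanin; r = 0.89). These are correlations across arrays of a gene with the best of all other genes above the limit, so a high r is built into the choice.

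PUB22 was most like GA2OX6 (AT1G02400, a gibberellin oxidase; r = 0.88), AOX1A (AT3G22370, the mitochondrial alternative oxidase; r = 0.85) and XTH19 (AT4G30290; r = 0.83). PUB24 was most like AT2G27500 (r = 0.86), ERF11 (AT1G28370, an ethylene response factor; r = 0.85) and NSL1 (AT1G28380; r = 0.83). ERF11 and NSL1 have adjacent locus numbers. AT1G24330 was most like A/N-InvC (AT3G06500, an invertase; r = 0.86), AT3G54000 (r = 0.85) and WRKY53 (AT4G23810, a transcription factor of defence and senescence; r = 0.84).

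PUB18 was most like AT1G22570 (r = 0.86), AT1G66180 (r = 0.84) and UMAMIT20 (AT4G08290, a transporter; r = 0.83). AT5G58680 was most like the adjacent loci AT4G27652 (r = 0.78) and AT4G27654 (r = 0.77) and AT1G19210 (r = 0.76). PUB21 reached no more than 0.71, with AHP1 (AT3G21510, a phosphotransfer protein of cytokinin signalling), AT5G63640 and AT1G03180.

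Of 33 other U-box genes listed, 27 had a probe set of their own, and the median of their flight minus ground control differences was 0.16 (leaves), 0.01 (hypocotyls), 0.11 (roots) and 0.04 (whole plants), beside -0.07, -0.01, 0.00 and -0.01 over all probe sets. None passed an adjusted p under 0.05 in any of these comparisons (limma). At the thresholds of choice 1 passed as higher in roots, beside 1.06% of all probe sets. It was CMPG2 (AT5G64660), the relative of PUB20, at 741 against 336 (log2 difference 1.09 ± 0.27, SE). SAUL1 (AT1G20780), a ligase that delays senescence, passed as lower in roots, but its ground control signal of 29.9 was below the lower quartile of those arrays and no size is given. Differences between lists were not tested.

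Between ground control organs, 12 of these 27 U-box genes passed between roots and leaves (8 higher, 4 lower in roots), beside 41.3% of all probe sets, and 12 between hypocotyls and leaves (7 higher, 5 lower in hypocotyls), beside 35.7%. AT1G68940 was at 126 in roots and at 4.29 in leaves, below the lower quartile of every leaf array, so that the size of its rise is not given (limma adjusted p = 1.88e-05). PUB26 (AT1G49780), which marks the immune kinase BIK1, fell from 357 in leaves to 138 in roots (log2 difference -1.37 ± 0.19, SE; limma adjusted p = 5.2e-05). PUB8 (AT4G21350) rose from 122 to 271 (1.16 ± 0.13; 8.77e-06). In hypocotyls PUB29 (AT3G18710) was higher than in leaves, at 1256 against 459 (1.46 ± 0.15; 5.47e-06).

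Of 12 known substrates and partners of U-box ligases, 11 were measured. At the thresholds of choice 3 passed as higher in flight roots, beside 1.06% of all probe sets, and none as lower. They were MYB15, a transcription factor marked by PUB24 (2554 against 472; log2 difference 2.47 ± 0.65, SE), LYK5, a chitin receptor kinase (1435 against 396; 1.83 ± 0.44), and EXO70B1 (1838 against 793; 1.16 ± 0.26). The next 2 genes were named after their values were seen, for their link to PUB22 and PUB23. EXO70B2, the exocyst subunit marked by PUB22, differed by 0.28 ± 0.30 in roots, and the proteasome subunit RPN12a, marked by PUB22 and PUB23, by -0.13 ± 0.16. Between ground control roots and leaves 6 of the 11 passed an adjusted p under 0.05 (2 higher, 4 lower in roots), beside 41.3% of all probe sets. BRI1, the brassinosteroid receptor, was lower in roots by a difference of -1.45 ± 0.14 (limma adjusted p = 1.38e-06), and the flagellin receptor FLS2 was also lower, at 23.0, under the lower quartile of the root arrays, against 225 in leaves (limma adjusted p = 0.000655).

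Of 12 genes for ubiquitin and the enzymes upstream of the ligases, 9 were measured. None passed the thresholds of choice between flight and ground control in any organ, and the median difference was -0.11 in leaves, 0.05 in hypocotyls and -0.17 in roots. The 4 ARM repeat proteins without a U-box had median differences of -0.10, 0.05 and -0.09 in leaves, hypocotyls and roots, and none passed.

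Of 17 early defence response genes measured, 17 had a higher mean log2 signal in flight leaves, 15 in flight hypocotyls, 17 in flight roots and 17 in flight whole plants. Median log2 differences were 0.76, 0.55, 1.07 and 0.83. None passed an adjusted p under 0.05. At the thresholds of choice 3, 1 and 7 were higher in leaves, hypocotyls and roots, beside 0.281%, 0.422% and 1.06% of all probe sets. In roots these include CBP60g, a regulator of salicylate synthesis (98.8 against 48.2; 1.04 ± 0.14, log2, SE), PHI-1 (1428 against 412; 1.81 ± 0.34), the ligase ATL31 (390 against 159; 1.32 ± 0.26) and the zinc finger factor ZAT12 (3458 against 1060; 1.71 ± 0.36). Of the abscisic acid and drought list, 11 of 12 were measured, and 0 passed the thresholds of choice in any organ, with median differences of -0.14, 0.08 and 0.35 in leaves, hypocotyls and roots. These lists were drawn up with results of the same arrays known and give no independent support to the values of the 9 genes.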

How the data were processed

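The deposited values are MAS5 signal intensities on a linear scale, as deposited by the authors, who ran the MAS5 algorithm in Affymetrix Expression Console (version not given in the sources used here). Per the labels, a separate sample stands behind each array. The tables of the authors hold p-values, q-values and fold changes of their own comparisons, which were not used; the numbers of arrays called present were taken from them as deposited, from the 3 organ tables, which list only probe sets that passed there, while the whole plant table lists every probe set and gave the loci. No genome or sequence was used here. Gene names came from the deposited annotation and RefSeq (TAIR10.1), which has a symbol for 6 of the 9 genes; PUB numbers otherwise follow common use.

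Of 22810 probe sets, 64 controls were left out and 22746 were fitted as log2 signal with no offset (R 4.3.3, limma 3.58.1, lmFit and eBayes, Benjamini-Hochberg adjustment over all). Flight was compared with ground control in each organ and in whole plants, and ground control organs in 1 fit of 15 arrays. The study's methods name Student's t-test, which was run as an alternative. The fits were tested on simulated data. The 9 genes and all gene lists were chosen with earlier results of these data known. Of 112 listed entries 99 had a probe set of 1 gene. Genes named from lists are at most 4 per list and comparison, by smallest p among those past a call, beside 2 named after their values were seen; the genes most alike are the 3 with the highest r. The sources do not say whether organ arrays with the same plate and replicate number come from the same plants, and in ground control their deviations from the group means correlated at -0.10 to 0.05. Precision is limited by how many arrays there are. Alternatives were quantile normalization, a shared 75th percentile, an offset of 36.5, a filter on the lowest 40% of signals, limma with trend and robust settings, blocks, plate means and leaving out arrays. Plate means were fitted only for flight against ground control in organs.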

Additional observations from a re-analysis of the deposited data

Results flagged for a closer look

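In 54 groups of 5 organ arrays (9 genes, 3 organs, 2 environments), 8 had 1 array far from the other 4 on the log2 scale by Dixon's test (nominal rate 1 in 20). The genes share arrays and no share over all probe sets is given, so that number is not set against chance. Of the 8 flags, 5 fall on flight arrays of plate 2, each value lower than the others of its group. In flight leaves, plate 2 gave 74.1 for PUB18 (others 177 to 236), 85.1 for PUB22 (others 274 to 346), 114 for PUB23 (others 703 to 1355) and 212 for PUB24 (others 409 to 476). In flight hypocotyls, plate 2 gave 161 for PUB23 (others 380 to 456).

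The other 3 flags fall on hypocotyl arrays at low signal. The second plate 6 array gave 4.90 for PUB18 in flight (others 33.5 to 70.3), and the second plate 4 array of ground control gave 3.74 for PUB18 (others 31.8 to 69.3) and 23.7 for PUB21 (others 42.5 to 48.3). The cause of these values was not tested.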

How the results depend on the processing

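In hypocotyls the 1 gene past the thresholds of choice became 0 with the low-signal filter, which takes AT5G58680 out, with plate means, and without plate 2 (an alternative chosen after seeing the data), and ran from 0 to 1 as each array was left out (0 without the first flight array of plate 4 or of plate 6, or without either ground control array of plate 4). In roots the 5 genes past those thresholds became 3 with the low-signal filter, 3 with the methods' t-test and 2 with plate means (PUB23 and AT1G24330), and ran from 2 (PUB19 and PUB23, without the second flight array of plate 6) to 7 (without flight plate 2); PUB19 and PUB23 remained in each of these except plate means, where PUB19 was lost. The count at an adjusted p under 0.05 in roots is a description and no test, since these values chose the genes. It rose from 0 to 1, PUB23, with trend and robust settings, with the low-signal filter or with the offset. It ran from 0 to 1 over the arrays left out, with the 1 found without flight plate 2. In whole plants every alternative gave 0, with 0 to 0 over the arrays left out, and PUB24 ran from -0.072 (without flight plate 6) to 0.91.

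For ground control roots against leaves the count of 1 became 2 with the offset (PUB18 added) or with only these 2 organs in the fit, 0 with the low-signal filter, which removes AT1G24330, and 1 to 2 over the arrays left out. For hypocotyls against leaves 3 became 2 with quantile normalization, where PUB22 was lost, or with the filter, which removes PUB18, and 2 to 3 over the arrays left out. For roots against hypocotyls 1 became 2 with quantile normalization, the offset, only the 2 organs or the plate and replicate number as a fixed replicate block (PUB18 added, 1.46 ± 0.44, adjusted p = 0.0318), and stayed at 1 over the arrays left out. Small differences that had not passed changed sign. For hypocotyls minus leaves these were PUB21 with the shared 75th percentile (-0.10) or an array left out (-0.17 to 0.20), PUB24 with an array left out (-0.25 to 0.25), and AT5G58680 with quantile normalization (0.13) or an array left out (-1.17 to 0.22). For roots minus hypocotyls they were PUB19 with quantile normalization (-0.19), the offset (-0.091) or an array left out (-0.56 to 0.41) and AT5G58680 with an array left out (-1.26 to 0.095), and for roots minus leaves PUB23 with an array left out (-0.029 to 0.71). Except where fewer genes were tested, the cause was not tested.

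Flight and ground control arrays with the same number share a plate number only. With that number as a replicate block the counts past the thresholds of choice were 0, 1 and 5 in leaves, hypocotyls and roots, as without it; the deviations of same-numbered arrays correlated at -0.09 to 0.04 in the organs and 0.04 to 0.11 in whole plants, where every array correlated best with its own number. A random block for the number across organs, with a correlation of -0.01, changed no count. The plate as a block, chosen after seeing the data, gave 6 in roots. Low signal limits PUB18, PUB21, PUB22 and AT5G58680 in hypocotyls. As arrays were left out in turn, flight minus ground control changed sign for PUB18, AT5G58680 and AT1G24330 in leaves, for PUB18, PUB21 and PUB22 in hypocotyls, and for no gene in roots.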
